A study of Mus musculus with 9 samples.

Results

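The genes described here encode chaperones of the endoplasmic reticulum (ER) and the sensors and transcription factor of the unfolded protein response. They are *Hspa5*, *Hsp90b1*, *Xbp1*, *Ern1*, *Ern2*, *Atf6*, *Dnajb9*, *Sdf2l1*, *Pdia4* and *Calr*. They were chosen by name, with no threshold on measured values, and make up 10 of the 54838 gene identifiers in the expression tables. Each of the 10 matched 1 identifier and was at or above 1 FPKM (mapped fragments scaled for transcript length and library size) in every library, as were 10440 genes in all.

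The study used bulk RNA-seq of intestinal organoids, which are epithelial cultures grown in a gel from mouse intestine. The organoids of all groups came from *Vil-CreERT2*;*Mettl3* fl/fl mice, with the strain given as C57BL/6. In this line the villin promoter drives, in epithelial cells, a Cre recombinase that 4-hydroxytamoxifen (4-OHT) activates, and active Cre excises the floxed part of *Mettl3*, the gene of an RNA methyltransferase. The treatments differ in the solvent or drug of the first 2 days and in the agent that the organoids were kept in for 5 days. EtOH DMSO (2 libraries) received the solvents ethanol and DMSO, and EtOH Nec-1 (2 libraries) received ethanol and necrostatin-1 (Nec-1), an inhibitor of the kinase RIPK1. 4-OHT DMSO (2 libraries) received 500 nM 4-OHT and DMSO, and 4-OHT Nec-1 (1 library) received 4-OHT and Nec-1. The Nec-1 concentration is given as 5 µM in one place of the study and as 10 µM in another. Organoids without Cre that received 4-OHT were not analysed here, so an effect of the drug itself and an effect of the deletion cannot be told apart. Nothing in the labels says that replicates came from separate cultures, so the p-values measure only the spread between these libraries, which may be technical. The FPKM of a library added up to 450207 to 498712, with 11559 to 12038 genes reaching 1 FPKM. Without fragment counts, which were not used here, the depth behind a single value is unknown.

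*Mettl3* (ENSMUSG00000022160) was at 2.70 and 2.71 FPKM with EtOH DMSO, 2.41 and 2.47 with EtOH Nec-1, 3.72 and 4.14 with 4-OHT DMSO and 3.36 with 4-OHT Nec-1. The targeted gene was thus not lower in the libraries labelled 4-OHT. By limma it was higher in 4-OHT DMSO than in EtOH DMSO (log2 fold change 0.41, standard error 0.098, limma adjusted p = 0.0231), a call kept in 8 of 16 alternatives (limma adjusted p from 0.0180 to 0.0908). It was lost with centring (limma adjusted p = 0.0796), with upper quartile scaling (0.0640) and without the first (0.0689) or second (0.0644) EtOH DMSO, either EtOH Nec-1 (0.0588 and 0.0589) or the second 4-OHT DMSO library (0.0908). The call was also lost with only the 4 libraries of the comparison (limma adjusted p = 0.0588). Gene-level FPKM do not resolve the floxed exons and cannot show whether they were cut out, and each direction between EtOH and 4-OHT below rests on the labels of the libraries. The tissue matched its label: the epithelial markers *Krt8* and *Epcam* were at 1152 to 1771 and 431 to 609 FPKM. By contrast, the fibroblast and endothelial markers (*Col1a1*, *Col1a2*, *Col3a1*, *Pdgfra*, *Vim* and *Pecam1*) together summed to 0.555 to 1.24 FPKM. Of the plasma cell markers, *Mzb1* was listed at 0 in all 7 libraries and *Jchain* at 0 to 0.214.

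Secreted and membrane proteins enter the ER unfolded, and chaperones, disulfide isomerases and lectins of its lumen help them fold. When unfolded proteins gather there, the membrane sensors IRE1, PERK and ATF6 start the unfolded protein response, in which spliced XBP1, ATF4 and cleaved ATF6 raise the transcription of chaperones and of the machinery that degrades misfolded proteins. In the intestine, Paneth and goblet cells secrete large amounts of antimicrobial proteins and mucins, and are known for their large ER and for their dependence on XBP1.

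From EtOH DMSO to the libraries labelled 4-OHT DMSO, *Hspa5*, *Pdia4*, *Calr*, *Sdf2l1* and *Dnajb9* were higher and *Xbp1* was lower, whereas *Hsp90b1*, *Ern1*, *Ern2* and *Atf6* did not pass the test. The test was limma on log2(FPKM + 1) over 12702 genes, with an adjusted p (Benjamini-Hochberg) under 0.05 taken as a call. The pseudocount of 1 makes the log2 fold change of a low gene smaller than the ratio of its values. Thus 5 of the 10 genes were called higher, where 24.5% of all genes tested were, and 1 of 10 lower, where 16.7% of all genes were. Their median log2 fold change was 0.25, and that of all genes tested was 0.077. Much of the transcriptome was called in this comparison (3117 genes higher and 2120 lower), and its direction depended on scaling: setting every library to a common median (centring) shifted that median over all genes by 0.157, from 0.077 to -0.080. With centring, 17.4% of all genes were called higher and 25.1% lower, and of the 10 genes 3 were called higher (*Calr*, *Pdia4*, *Sdf2l1*) and 3 lower (*Xbp1*, *Ern1*, *Atf6*). With centring the counts of the 10 genes thus lie near the shares of all genes, and nothing particular to the set is read from its counts. *Xbp1*, *Calr*, *Pdia4* and *Sdf2l1* were called in the same direction under each of 16 alternative settings, libraries left out included.

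**Figure D1:**
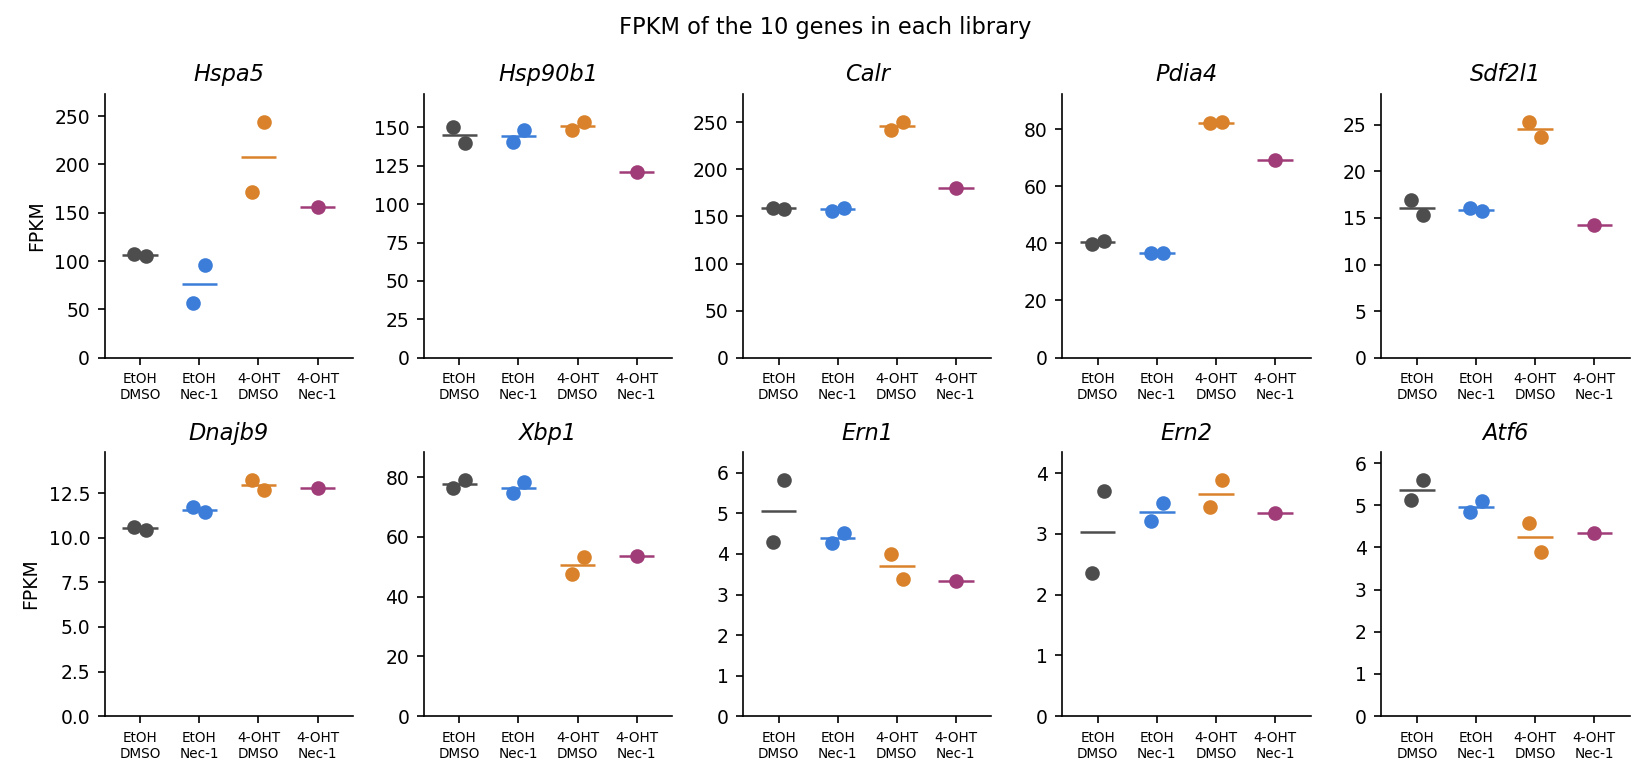
FPKM (vertical axis, from 0) of each of the 10 genes in the 4 groups of libraries (horizontal axis). Each point is 1 library and each bar the mean of a group; *Pdia4* lay at 82.1 and 82.6 FPKM in 4-OHT DMSO against 39.9 and 41.0 in EtOH DMSO, and *Xbp1* at 47.6 and 53.4 against 76.3 and 79.0.

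By level in the libraries labelled EtOH DMSO, *Calr* (rank 376 of the 12702 genes tested), *Hsp90b1* (rank 401), *Hspa5* (rank 544) and *Xbp1* (rank 709) were among the abundant transcripts. *Pdia4* followed at rank 1310, *Sdf2l1* at 2933 and *Dnajb9* at 4119, and the sensors *Atf6* (6555), *Ern1* (6804) and *Ern2* (8654) were low. FPKM is scaled for length, so these levels can be set beside each other. The libraries of *Atf6* and *Ern1*, neighbours in this order, overlapped, and those of the other neighbours did not. In 4-OHT DMSO the order differed: *Hspa5* (171 and 244 FPKM) overlapped with *Calr* (242 and 251) and lay above *Hsp90b1* (149 and 154), and *Pdia4* lay above *Xbp1*. Summed over the 10 genes, FPKM was 573 and 564 with EtOH DMSO, 505 and 559 with EtOH Nec-1, 742 and 832 with 4-OHT DMSO and 618 with 4-OHT Nec-1.

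Of the sensors, *Ern1* (ENSMUSG00000020715) encodes IRE1α, the kinase and RNase that splices the *Xbp1* mRNA. It was at 4.30 and 5.82 FPKM with EtOH DMSO, 4.28 and 4.51 with EtOH Nec-1, 4.01 and 3.39 with 4-OHT DMSO and 3.33 with 4-OHT Nec-1. The groups treated with DMSO did not overlap, but the EtOH DMSO libraries lay farther from each other than the lower of them lay from the nearest 4-OHT DMSO library. Its log2 fold change of -0.36 (standard error 0.15) did not pass the test (limma adjusted p = 0.114). Without the second EtOH DMSO library it was -0.17. With centring it was -0.51 (limma adjusted p = 0.0304), and without the first EtOH DMSO library it was -0.54 (limma adjusted p = 0.0483). Over all alternatives the adjusted p of *Ern1* ranged from 0.0304 to 0.354.

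*Atf6* (ENSMUSG00000026663), whose product is cut in the Golgi to release a transcription factor, showed a similar small difference. Its FPKM was 5.14 and 5.59 with EtOH DMSO, 4.83 and 5.10 with EtOH Nec-1, 4.59 and 3.89 with 4-OHT DMSO and 4.33 with 4-OHT Nec-1. Each library labelled 4-OHT was below each EtOH library. The log2 fold change between the DMSO groups was -0.28 (standard error 0.11, limma adjusted p = 0.0875), and -0.19 without the second 4-OHT DMSO library. It passed the test with centring (-0.44, limma adjusted p = 0.0199) and with upper quartile scaling (-0.42, limma adjusted p = 0.0325), and the range over the alternatives was 0.0199 to 0.296.

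*Ern2* (ENSMUSG00000030866) encodes IRE1β, the form of IRE1 that is typical of mucus-secreting epithelia, and goblet cells express it. Its FPKM was 2.36 and 3.71 with EtOH DMSO, 3.20 and 3.51 with EtOH Nec-1, 3.44 and 3.88 with 4-OHT DMSO and 3.35 with 4-OHT Nec-1. The first EtOH DMSO library was the lowest and the groups overlapped. The log2 fold change of 0.23 (standard error 0.18, limma adjusted p = 0.354) rested on that library, since without it the value was -0.018. The genes whose pattern over the 7 libraries was most like that of *Ern2*, by the root mean square difference of log2(FPKM + 1) after each gene's mean was subtracted, were *Uggt1* (0.052), *Dnajc1*, *Nbas*, *Btnl4* and *Mpp4* (0.070). All of them had their lowest value in the first EtOH DMSO library, where *Uggt1* was at 4.87 FPKM against 6.26 to 7.21 in the others. Because they were picked for likeness over these same libraries, a shared lowest library comes with the choice.

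*Xbp1* (ENSMUSG00000020484) encodes the transcription factor downstream of IRE1. Its FPKM was 76.3 and 79.0 with EtOH DMSO, 74.8 and 78.3 with EtOH Nec-1, 47.6 and 53.4 with 4-OHT DMSO and 53.5 with 4-OHT Nec-1. The libraries labelled 4-OHT thus formed a group of their own, below every EtOH library. *Xbp1* fell by 0.61 in log2(FPKM + 1) (standard error 0.088, limma adjusted p = 0.00464, lower in 4 of 4 pairings of libraries), to a ratio of mean FPKM of 0.650. It was called lower under each alternative (limma adjusted p between 0.00176 and 0.0260), and by -0.77 with centring. FPKM for the whole gene do not separate the spliced from the unspliced form, so the values give the amount of *Xbp1* RNA and not its splicing.

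**Figure D2:**
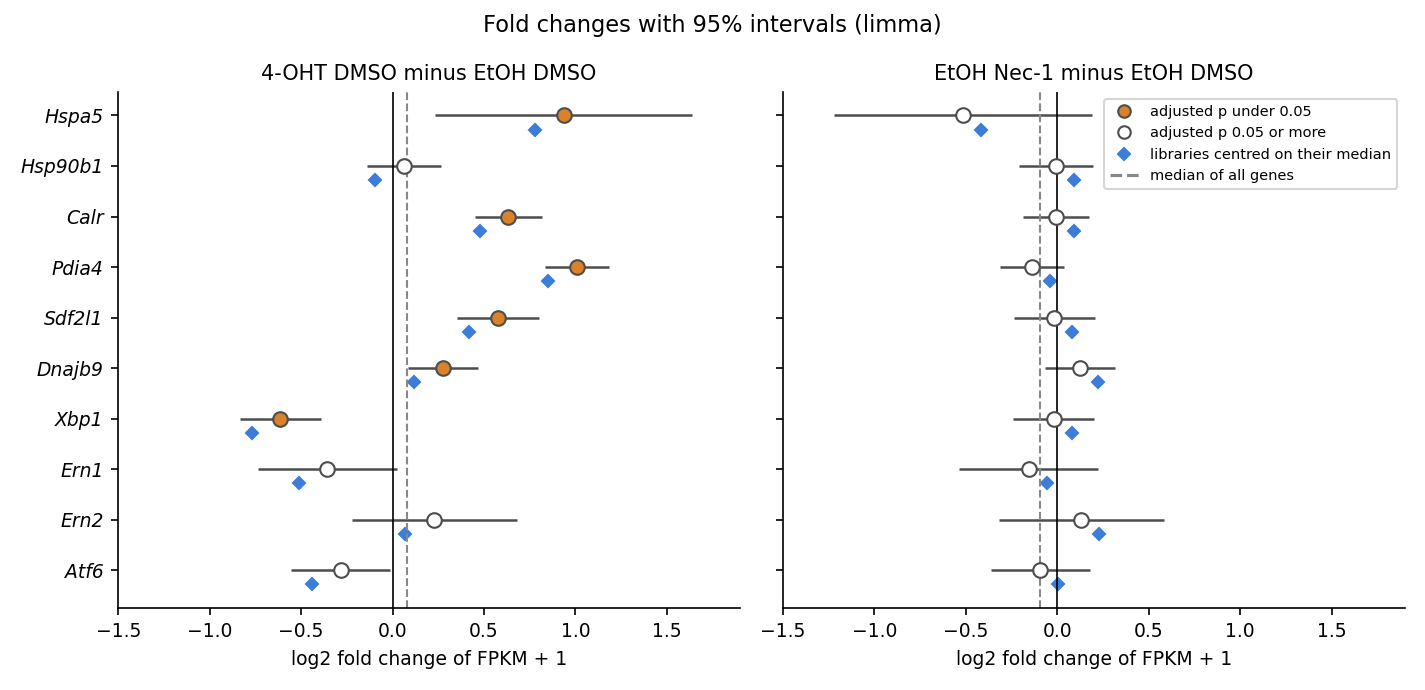
Log2 fold change of FPKM + 1 (horizontal axis) of each of the 10 genes for 4-OHT DMSO minus EtOH DMSO (left) and EtOH Nec-1 minus EtOH DMSO (right). Circles with lines are limma estimates with 95% intervals, filled where the adjusted p is under 0.05, diamonds the values after centring, and the dashed line the median of all genes; *Hspa5*, with a standard error of 0.28, has the widest interval in both panels.

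Promoters were read because the ER stress element, a motif known to bind ATF6 and XBP1 together with NF-Y, was first described in chaperone promoters. The element is spelled CCAAT, then 9 bases, then CCACG, and both strands of the 300 bases around each start site (250 before it and 50 after) were searched. Of the 10 genes, 8 had an entry in the RefSeq promoter table (build GRCm38.p6), and *Ern2* and *Atf6* had none. The element lay in the promoters of *Hspa5*, *Hsp90b1* and *Calr*, and in 39 of all 32851 promoters (0.119%). Its ends alone are common: CCAAT occurred in 37.4% of all promoters and in 6 of the 8, and CCACG in 32.8% and in 7 of the 8. The XBP1 and ATF6 core TGACGTGG, which overlaps the complement of CCACG, occurred in 0.676% of all promoters and in 0 of the 8. The stretches that hold the element follow, along each gene's strand, with capitals only for the ends of an element, CCAAT and CCACG or their complements ATTGG and CGTGG; those of *Hspa5* lie at chr2:34772015-34772053 (plus strand), of *Hsp90b1* at chr10:86705523-86705666 (minus strand) and of *Calr* at chr8:84847065-84847103 (minus strand).
Hspa5: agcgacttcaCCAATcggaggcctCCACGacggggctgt
Hsp90b1: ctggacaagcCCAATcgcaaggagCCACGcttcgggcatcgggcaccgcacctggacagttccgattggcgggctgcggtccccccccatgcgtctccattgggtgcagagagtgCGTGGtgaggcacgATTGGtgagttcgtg
Calr: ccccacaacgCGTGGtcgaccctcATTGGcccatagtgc
The element began 65 bases before the start site of *Hspa5*, on the gene's strand. In *Hsp90b1* there were 2, at 212 bases on the gene's strand and at 107 bases on the opposite strand, and in *Calr* it lay at 162 bases on the opposite strand. A match describes these letters only and says nothing about binding. *Hsp90b1*, with 2 elements, did not pass the test between the DMSO groups, and *Pdia4*, with none in this window, had the largest log2 fold change of the 10 genes. Without the first 4-OHT DMSO library that of *Hspa5* was larger, at 1.19 against 1.01 for *Pdia4*. Of all genes with the element in the table, 14 were tested, of which 6 were called higher (*Calr*, *Creld2*, *Hspa5*, *Spats2l*, *Syvn1* and *Zfp57*) and 0 lower, with a median log2 fold change of 0.10, where 24.5% of all genes were higher and 16.7% lower. With centring 4 of the 14 were higher and 2 lower and their median was -0.053, where 17.4% and 25.1% of all genes were. *Spats2l* and *Zfp57* were under 1 FPKM in each EtOH library and were tested only because of their level in 4-OHT DMSO. The set was formed after its values were seen, and nothing is read from its counts.

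*Hspa5* (ENSMUSG00000026864) encodes BiP, the Hsp70 of the ER lumen, which also keeps the sensors inactive. It was at 108 and 105 FPKM with EtOH DMSO, 57.0 and 96.2 with EtOH Nec-1, 171 and 244 with 4-OHT DMSO and 156 with 4-OHT Nec-1. Each library labelled 4-OHT lay above each EtOH library, but the libraries within EtOH Nec-1 and within 4-OHT DMSO differed widely. Its log2 fold change between the DMSO groups was 0.94 (standard error 0.28, limma adjusted p = 0.0458), a ratio of mean FPKM of 1.95, higher in 4 of 4 pairings. This call was fragile: it was lost without the second 4-OHT DMSO library (log2 fold change 0.68, limma adjusted p = 0.134) and without the first (limma adjusted p = 0.149) or second (limma adjusted p = 0.155) EtOH DMSO library. It was also lost with centring (0.78, limma adjusted p = 0.0755), with upper quartile scaling (0.77, limma adjusted p = 0.0657), without the mean-variance trend (limma adjusted p = 0.0509) and with no filter on low values (limma adjusted p = 0.146). Over the alternatives the limma adjusted p ranged from 0.0265 to 0.155, and the log2 fold change from 0.68 to 1.19. The genes most like *Hspa5* over the 7 libraries were *Cyp2e1* (root mean square difference 0.14), *Tti1*, *Neurog3*, *Arf2* and *Lrrc42* (0.19). As with *Hspa5*, the lowest value of each was in the first EtOH Nec-1 library, where *Cyp2e1* was at 0.928 FPKM, against 1.75 in the other EtOH Nec-1 library and 7.44 in the second 4-OHT DMSO library. Here too the shared lowest library comes with the way the genes were picked.

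*Hsp90b1* (ENSMUSG00000020048) encodes GRP94, the Hsp90 of the ER. It was at 150 and 140 FPKM with EtOH DMSO, 140 and 148 with EtOH Nec-1, 149 and 154 with 4-OHT DMSO and 121 with 4-OHT Nec-1. The 4-OHT Nec-1 library was the lowest, and the EtOH DMSO libraries overlapped with those of EtOH Nec-1 and of 4-OHT DMSO. The log2 fold change between the DMSO groups was 0.061 with a 95% interval from -0.14 to 0.26 (limma adjusted p = 0.582), and its sign turned with centring (-0.096) and with upper quartile scaling (-0.10).

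The cofactors of BiP were lower in level. *Dnajb9* (ENSMUSG00000014905) encodes ERdj4, a DnaJ protein that brings BiP to its clients and to IRE1. Its FPKM was 10.6 and 10.5 with EtOH DMSO, 11.7 and 11.5 with EtOH Nec-1, 13.2 and 12.7 with 4-OHT DMSO and 12.8 with 4-OHT Nec-1. The values fell into tight pairs, with EtOH DMSO lowest and the libraries labelled 4-OHT highest. The log2 fold change between the DMSO groups was 0.28 (standard error 0.077, limma adjusted p = 0.0369), higher in 4 of 4 pairings. Centring, which lowered every log2 fold change of this comparison by the same 0.157, brought it to 0.12 (limma adjusted p = 0.286) and upper quartile scaling also to 0.12 (limma adjusted p = 0.295). The call was lost as well without any 1 of the 6 libraries of EtOH DMSO (limma adjusted p = 0.0802 and 0.0899), EtOH Nec-1 (limma adjusted p = 0.0899 and 0.0901) and 4-OHT DMSO (limma adjusted p = 0.115 and 0.0725). With only the 4 libraries of the comparison the limma adjusted p was 0.0909, and the range over all alternatives was 0.0279 to 0.295.

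*Sdf2l1* (ENSMUSG00000022769), whose product works with DnaJ proteins of the ER to keep clients soluble, was at 17.0 and 15.3 FPKM with EtOH DMSO, 16.1 and 15.7 with EtOH Nec-1, 25.3 and 23.7 with 4-OHT DMSO and 14.2 with 4-OHT Nec-1. The libraries of 4-OHT DMSO stood apart from all others, and the 4-OHT Nec-1 library had the lowest value of the 7. Between the DMSO groups *Sdf2l1* rose by 0.58 in log2(FPKM + 1) (standard error 0.089, limma adjusted p = 0.00585, 4 of 4 pairings), a ratio of 1.52. Over the alternatives the limma adjusted p lay between 0.00518 and 0.0254.

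*Calr* (ENSMUSG00000003814) encodes calreticulin, the soluble lectin that holds glycoproteins while they fold and binds calcium. It was at 159 and 158 FPKM with EtOH DMSO, 156 and 159 with EtOH Nec-1, 242 and 251 with 4-OHT DMSO and 181 with 4-OHT Nec-1. The EtOH libraries, with and without Nec-1, were nearly equal, and the 4-OHT Nec-1 library lay between them and 4-OHT DMSO. Between the DMSO groups *Calr* rose by 0.63 in log2(FPKM + 1) (standard error 0.072, limma adjusted p = 0.00239, 4 of 4 pairings), a ratio of 1.56, with a limma adjusted p of 0.00205 to 0.0139 over the alternatives.

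*Pdia4* (ENSMUSG00000025823) encodes ERp72, a disulfide isomerase that forms and rearranges disulfide bonds of secreted proteins. Its FPKM was 39.9 and 41.0 with EtOH DMSO, 36.7 and 36.5 with EtOH Nec-1, 82.1 and 82.6 with 4-OHT DMSO and 69.3 with 4-OHT Nec-1. The replicates were nearly equal, and the libraries labelled 4-OHT lay far above all EtOH libraries. *Pdia4* rose by 1.01 in log2(FPKM + 1) (standard error 0.069, limma adjusted p = 0.000647, 4 of 4 pairings), a ratio of 2.04. The limma adjusted p stayed between 0.000509 and 0.00766 over the alternatives, and the log2 fold change with centring was 0.85.

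Around these genes, the other genes of the pathway were described by lists. None of the lists was tested as a set, and their counts are read beside the shares of all genes called higher (24.5%) and lower (16.7%) from EtOH DMSO to the libraries labelled 4-OHT DMSO and beside the median of all genes, 0.077. Among the 14 sensors and transcription factors of the unfolded protein response, 4 were called higher and 2 lower (median 0.20), and with centring 2 were higher and 4 lower. *Eif2ak3*, which encodes the sensor PERK, rose from 3.16 and 3.58 to 6.82 and 5.89 FPKM (log2 fold change 0.75, limma adjusted p = 0.00636). *Creb3*, a membrane-bound transcription factor of the ER, rose from 7.80 and 7.13 to 14.7 and 13.6 FPKM (0.84, limma adjusted p = 0.00287). Both kept their call under every alternative. *Mbtps2*, the site-2 protease that cleaves ATF6, rose by 0.45 (limma adjusted p = 0.0192). Its log2 fold change stayed between 0.30 and 0.48 where the call was lost, which was with centring (limma adjusted p = 0.0517), with upper quartile scaling (0.0509) and without any 1 library of EtOH DMSO (0.0693 and 0.0529) or of 4-OHT DMSO (0.0617 and 0.0558). The fourth was *Creb3l1* (0.38, limma adjusted p = 0.0255), named only after its value was seen; its call was lost with centring (limma adjusted p = 0.0846), with upper quartile scaling (0.103) and without the first EtOH DMSO (0.0877), either EtOH Nec-1 (0.0581 and 0.0585) or either 4-OHT DMSO library (0.0896 and 0.0518). The genes called lower were *Xbp1* and *Atf4*, the transcription factor downstream of PERK, which was at 127 and 137 FPKM in EtOH DMSO and 88.8 and 107 in 4-OHT DMSO (-0.43, limma adjusted p = 0.0319). The call of *Atf4* was lost with no filter on low values (limma adjusted p = 0.0826), with only the 4 libraries of the comparison (0.0660), and without the first (0.0766) or second (0.123) EtOH DMSO library, either EtOH Nec-1 library (0.0660 and 0.0659) or the first 4-OHT DMSO library (0.0760). So of the sensors, *Eif2ak3* was higher, *Ern1*, *Ern2* and *Atf6* did not pass the test, and the RNAs of the transcription factors *Xbp1* and *Atf4* were lower.

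The list of ER lumen chaperones of the Hsp70, Hsp90 and DnaJ families and their cofactors held 16 genes, of which 9 were called higher and 2 lower, with a median of 0.46 (centred: 7 higher, 3 lower, median 0.30). *Dnajc10*, a DnaJ protein that reduces disulfide bonds, rose from 9.53 and 10.2 to 21.8 and 20.2 FPKM (1.02, limma adjusted p = 0.00146). *Dnajb11*, another cofactor of BiP, rose from 18.2 and 17.1 to 35.5 and 32.3 FPKM (0.90, limma adjusted p = 0.00265), and *Creld2* from 12.0 and 10.6 to 20.1 and 23.3 (0.88, limma adjusted p = 0.00365). These rises kept their call under every alternative. Lower were *Creld1* (-0.35, limma adjusted p = 0.0468) and *Sec63* (-0.30, limma adjusted p = 0.0318), a partner of the translocon. Both of the latter calls were lost in some of the alternatives, with a limma adjusted p of up to 0.156 for *Creld1* and 0.0902 for *Sec63*. The libraries whose absence ended the call of *Creld1* were each of the 6 of EtOH DMSO (limma adjusted p = 0.103 and 0.124), EtOH Nec-1 (0.102 and 0.101) and 4-OHT DMSO (0.0627 and 0.156), and for *Sec63* the same 6 (0.0510 and 0.0902, 0.0798 and 0.0800, 0.0790 and 0.0891). The summed FPKM of the 16 genes was 452 and 440 with EtOH DMSO, 400 and 443 with EtOH Nec-1, 600 and 685 with 4-OHT DMSO and 505 with 4-OHT Nec-1.

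Disulfide isomerases and ER oxidoreductases were split: of 19 tested of 20, 7 were higher and 3 lower, with a median of 0.084, close to that of all genes. *Agr2*, a disulfide isomerase needed for mucin folding and also on the goblet cell list, rose from 198 and 177 to 388 and 414 FPKM (1.10, limma adjusted p = 0.00113). *Qsox1*, a sulfhydryl oxidase of the secretory pathway, rose from 14.3 and 15.6 to 27.4 and 31.0 FPKM (0.92, limma adjusted p = 0.00184), and *Tmx1* by 0.76 (limma adjusted p = 0.00163). Against these, *P4hb*, by mean FPKM over all libraries the highest of the list, fell from 590 and 574 to 334 and 385 FPKM (-0.70, limma adjusted p = 0.00445). In 4-OHT DMSO it thus lay below *Agr2*. *Ero1l*, the oxidase that recharges the *P4hb* product, fell from 165 and 192 to 98.8 and 121 FPKM (-0.70, limma adjusted p = 0.0102). The remaining gene called lower was *Tmx2* (-0.35, limma adjusted p = 0.0330), named after its value was seen. The call of *Tmx2* was lost without either EtOH DMSO (limma adjusted p = 0.0928 and 0.104), either EtOH Nec-1 (0.0684 and 0.0685) or the second 4-OHT DMSO library (0.0973). With *P4hb* carrying much of the list's sum, that sum was 1395 and 1369 FPKM in EtOH DMSO and 1372 and 1506 in 4-OHT DMSO. In the calnexin cycle list 4 of 12 genes tested were higher, *Calr*, *Fkbp11* (0.79, limma adjusted p = 0.0111), *Mogs* (0.68, limma adjusted p = 0.00750) and *Prkcsh* (0.47, limma adjusted p = 0.00563), and 1 lower, *Mcfd2* (-0.49, limma adjusted p = 0.00523), with a median of 0.14. Without the second EtOH DMSO library *Fkbp11* was not called (limma adjusted p = 0.0568). Centring gave 6 higher and 4 lower among the oxidoreductases and 4 higher and 3 lower in the calnexin cycle. *Canx*, the membrane-bound partner of *Calr*, named after its value was seen, was at 88.5 and 96.7 FPKM in EtOH DMSO and at 93.0 and 87.6 in 4-OHT DMSO.

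**Figure D3:**
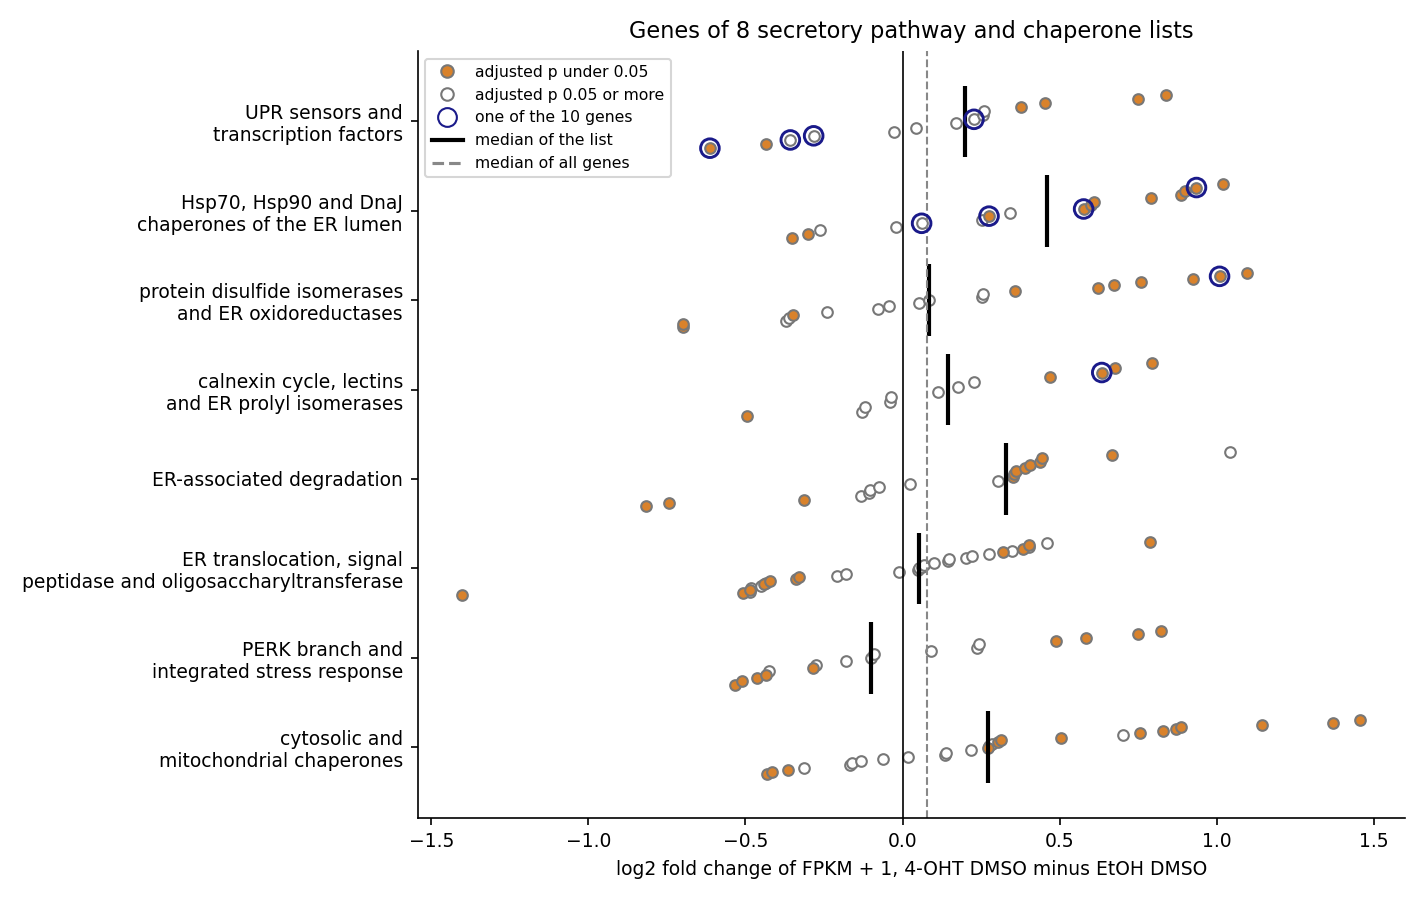
Log2 fold change of FPKM + 1, 4-OHT DMSO minus EtOH DMSO (horizontal axis), of each tested gene in 8 lists of the secretory pathway and of chaperones (vertical axis). Filled points have a limma adjusted p under 0.05, rings mark the 10 genes, black bars are the medians of the lists and the dashed line is the median of all genes (0.077); the median of the ER lumen chaperones was 0.46 and that of the PERK branch -0.10.

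In ER-associated degradation, which returns misfolded proteins to the cytosol, 8 of 18 tested genes were called higher and 3 lower (median 0.33). These counts depended on the settings: with centring 2 were higher and 6 lower (median 0.17), and with upper quartile scaling 2 and 5. The count of higher genes was 3 without either EtOH Nec-1 library, 4 without the first 4-OHT DMSO library, 5 without the second or without either EtOH DMSO library, 5 with no filter and 3 with only the 4 libraries of the comparison. *Edem3* (0.67, limma adjusted p = 0.00798) and *Os9* (0.44, limma adjusted p = 0.00928), which recognise misfolded glycoproteins, rose under every alternative. *Syvn1*, the ubiquitin ligase, had a log2 fold change of 0.44 (limma adjusted p = 0.0317) and lost its call with centring (limma adjusted p = 0.0800), with upper quartile scaling (0.0779), with no filter (0.0731), with only the 4 libraries of the comparison (0.0689) and without either EtOH DMSO library (0.120 and 0.0535), either EtOH Nec-1 library (0.0684 and 0.0687) or the second 4-OHT DMSO library (0.110). *Herpud1*, which organises the ligase complex and is a known target of ER stress, fell from 24.7 and 29.2 to 15.0 and 14.6 FPKM (-0.82, limma adjusted p = 0.00343). *Erlec1* fell from 10 and 10.3 to 5.48 and 5.81 FPKM (-0.74, limma adjusted p = 0.00433), and *Edem1*, named after its value was seen, had a log2 fold change of -0.31 (limma adjusted p = 0.0497). That call held in only 4 of 16 alternatives, and was lost without any 1 library of EtOH DMSO (limma adjusted p = 0.0717 and 0.156), EtOH Nec-1 (0.101 for each) and 4-OHT DMSO (0.0510 and 0.162).

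Of 31 genes of translocation into the ER, signal peptidase and oligosaccharyltransferase, 4 were higher and 7 lower (median 0.053; centred 1 and 11), and nothing is read from these counts beside those of all genes. Higher were *Srp19* (0.79, limma adjusted p = 0.00364), *Ddost* (0.40, limma adjusted p = 0.00883), *Srp9* (0.38, limma adjusted p = 0.0197) and, named after its value was seen, *Sec61b* (0.32, limma adjusted p = 0.0169). *Sec61b* lost its call with centring (limma adjusted p = 0.135), with upper quartile scaling (0.147) and without the first EtOH DMSO (0.0503) or either EtOH Nec-1 library (0.0556 for each). With centring *Ddost* (limma adjusted p = 0.0560) and *Srp9* (0.121) were not called, and *Srp9* also not with upper quartile scaling (0.0962), with only the 4 libraries (0.0528) or without the second EtOH DMSO (0.0611), either EtOH Nec-1 (0.0526 and 0.0527) or the second 4-OHT DMSO library (0.0589). The signal peptidase subunit *Spcs2* had the largest fall of the pathway lists, from 41.0 and 39.6 to 15.8 and 13.6 FPKM (-1.40, limma adjusted p = 0.00850; 0.0526 without the first EtOH DMSO library). In EtOH Nec-1 its libraries were far apart, at 34.3 and 20.1 FPKM. *Spcs3*, of the same complex, fell by 0.51 (limma adjusted p = 0.00493).

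In the PERK branch and integrated stress response, 4 of 17 genes were higher and 5 lower (median -0.10; centred 4 and 8). *Ppp1r15b* (0.82, limma adjusted p = 0.00303) and *Ppp1r15a* (0.58, limma adjusted p = 0.0128, and 0.0575 without the first EtOH DMSO library) were higher. Their products are regulatory subunits that take part in the dephosphorylation of eIF2α. Also higher were *Eif2ak3* and, named after its value was seen, *Slc7a11* (0.49, limma adjusted p = 0.0186, and 0.0665 without the first EtOH DMSO and 0.0671 without the first 4-OHT DMSO library). *Ddit3*, which encodes CHOP, fell from 9.81 and 10.5 to 6.25 and 7.19 FPKM (-0.53, limma adjusted p = 0.0117; 0.0524 without the second EtOH DMSO library), and *Asns*, a target of ATF4, from 75.0 and 82.4 to 54.7 and 55.1 (-0.51, limma adjusted p = 0.00661). The others called lower were *Atf4*, *Phgdh* (-0.46, limma adjusted p = 0.0119) and *Shmt2* (-0.29, limma adjusted p = 0.0407), the latter pair named after their values were seen. Without the first EtOH DMSO library *Phgdh* was not called (limma adjusted p = 0.0521), and *Shmt2* not without the second EtOH DMSO (0.114), either EtOH Nec-1 (0.0973 for each) or either 4-OHT DMSO library (0.0678 and 0.105). Chaperones outside the ER were read for comparison: 11 of 26 cytosolic and mitochondrial ones were higher and 3 lower (median 0.27; centred 7 and 4; 7 higher without the second EtOH DMSO library). They were led by *Hspa1b* (1.46, limma adjusted p = 0.00183), *Hspa1a* (1.37, limma adjusted p = 0.00113) and *Dnajb1* (1.14, limma adjusted p = 0.000619), inducible heat shock genes. *Hspa1a* was under 1 FPKM in each EtOH library and was tested only because of its level in the libraries labelled 4-OHT. *Hspa1a* and *Hspa1b* are near-identical copies whose reads may have been split between them. *Cct4* (-0.43, limma adjusted p = 0.0118) and *Cct7* (-0.42, limma adjusted p = 0.0184), subunits of the cytosolic chaperonin, and *Cct5* (-0.37, limma adjusted p = 0.0291, named after its value was seen) were lower. Leaving out the first EtOH DMSO library ended the call of *Cct4* (limma adjusted p = 0.05001) and of *Cct7* (limma adjusted p = 0.0725), and that of *Cct7* was also lost without the second EtOH DMSO (0.0591) or the second 4-OHT DMSO library (0.0524). That of *Cct5* was lost without the first EtOH DMSO (limma adjusted p = 0.0943), either EtOH Nec-1 (0.0735 and 0.0734) or the second 4-OHT DMSO library (0.0824).

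The genes of secretory cells were higher in the same libraries. All 12 Paneth cell markers were called higher between 4-OHT DMSO and EtOH DMSO (median 1.64), as were 9 of 11 goblet cell markers (median 0.93) and 12 of 13 tested of 17 enteroendocrine markers (median 0.90). With centring 11, 7 and 12 were called higher. The lists were chosen with earlier results of these data known. Together these lists held 40 genes, of which 36 were tested, 33 were higher and 1 was lower (30 and 1 with centring). Of all genes tested, 24.5% were higher and 16.7% lower (17.4% and 25.1% with centring). The gene called lower was *Klk1* (-0.36, limma adjusted p = 0.0497), named after its value was seen. The call of *Klk1* held in 5 of 16 alternatives, and was lost without either EtOH DMSO (limma adjusted p = 0.159 and 0.118), either EtOH Nec-1 (0.0945 and 0.0947) or the first 4-OHT DMSO library (0.133). Their summed FPKM was 12427 and 11315 with EtOH DMSO, 13047 and 12940 with EtOH Nec-1, 28835 and 29281 with 4-OHT DMSO and 21720 with 4-OHT Nec-1. The most abundant genes were *Defa24* for Paneth cells (4333 and 4194 to 10976 and 11158 FPKM), *Tff3* for goblet cells (1043 and 945 to 1211 and 1354) and *Gip* for enteroendocrine cells (157 and 145 to 390 and 458). The defensins are a family of near-identical genes, so the value of any 1 of them is uncertain and their calls may not be separate observations. *Lyz1* (852 and 783 to 1639 and 1595 FPKM), *Muc2* (17.6 and 20.2 to 44.9 and 43.2), *Chga* (18.0 and 19.4 to 38.2 and 49.6) and *Atoh1* (6.64 and 8.81 to 15.9 and 15.6) were called higher under every alternative, with a limma adjusted p of at most 0.0230 in any of them. *Tff3* was not, since its limma adjusted p of 0.0413 became 0.234 with centring, and leaving out any 1 of 5 libraries also ended the call, the first (0.0534) and second (0.116) EtOH DMSO, both EtOH Nec-1 (0.114 for each) and the second 4-OHT DMSO (0.103). *Spdef*, a goblet cell factor, did not pass the test (limma adjusted p = 0.502).

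The other cell types of the epithelium moved less evenly. Of 12 tested enterocyte markers 4 were higher and 6 lower (median -0.38; centred 4 and 7), of 9 stem cell markers 1 was higher and 4 lower (median -0.36; centred 0 and 5), and of 4 tested secretory fate factors 2 were higher and 1 lower (centred 1 and 1). Their summed FPKM in EtOH DMSO and 4-OHT DMSO was 1664 and 1617 against 1363 and 1432 for enterocytes, and 89.8 and 91.6 against 86.1 and 62.7 for stem cells. The most abundant gene was *Fabp1* for enterocytes and *Slc12a2* for stem cells, and neither passed the test. Of 16 alternatives, *Fabp1* was called in 3, among them centring (-0.48, limma adjusted p = 0.0359), and *Slc12a2* in 1. Plasma cells, which also carry much ER, were at or near 0 by their markers *Mzb1* (0 in every library) and *Jchain* (at most 0.214 FPKM); of 9 plasma and other immune cell markers 2 were tested and higher, *Sdc1* (94.2 and 98.2 to 124 and 134 FPKM), which epithelial cells also express, and *Cd68* (0.774 and 2.01 to 5.69 and 7.72), named after its value was seen. Of the epithelial markers 4 of 6 were higher and 0 lower (1 and 1 with centring), with sums of 3476 and 3257 in EtOH DMSO and 3921 and 4549 in 4-OHT DMSO. In bulk RNA, fewer cells of a type and less RNA per cell cannot be told apart, and the part of the secretory and other cells in the levels of the 10 genes was not tested.

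**Figure D4:**
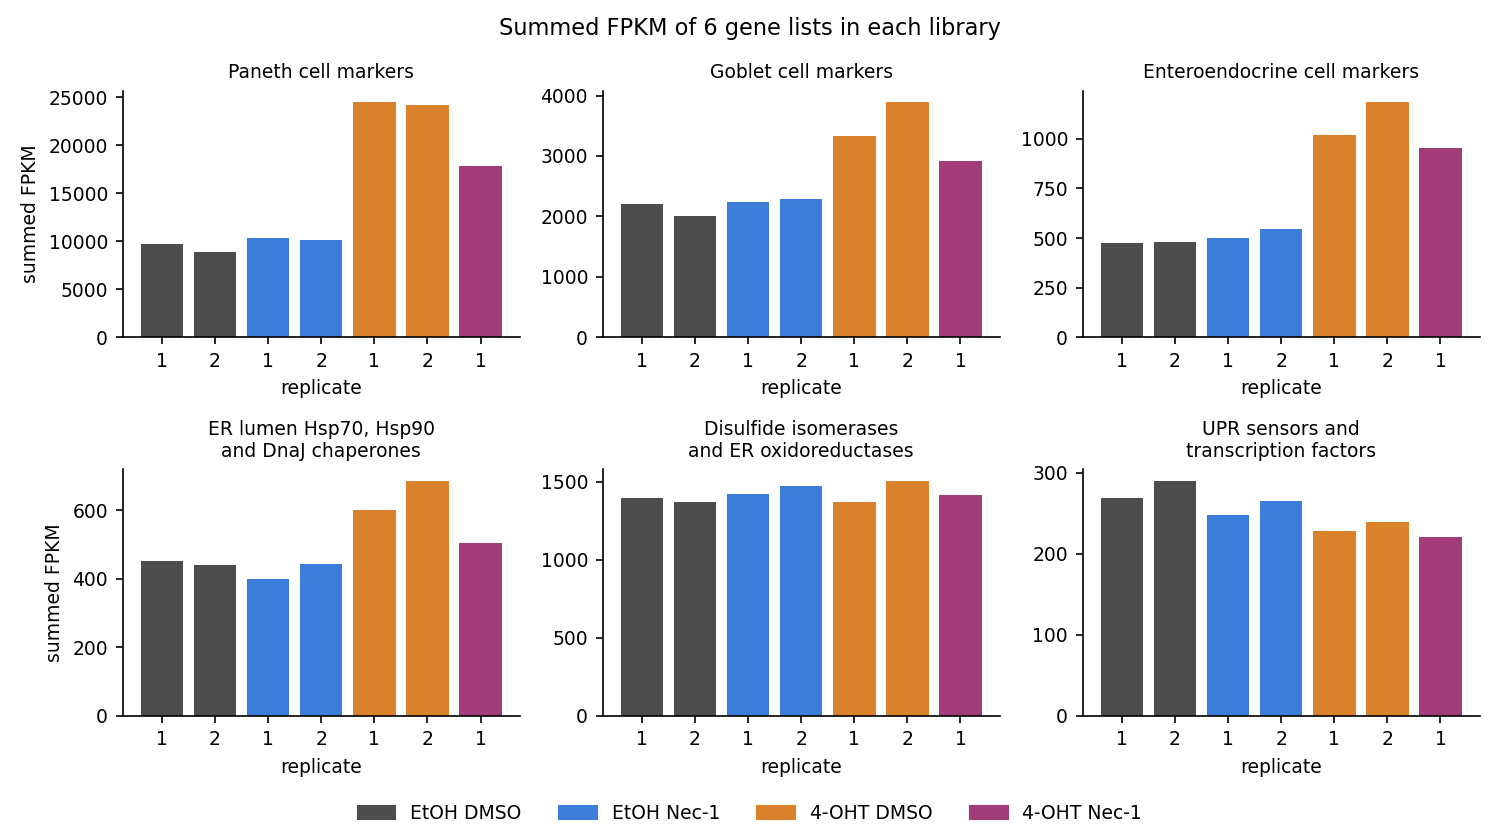
Summed FPKM (vertical axis, from 0) of 6 gene lists in each of the 7 libraries, shown by replicate number (horizontal axis) and coloured by group; each bar is 1 library. The sums of the Paneth, goblet and enteroendocrine markers and of the ER lumen chaperones were highest in 4-OHT DMSO and lower in 4-OHT Nec-1. Those of the sensors and transcription factors were 269 and 290 in EtOH DMSO and 228 and 240 in 4-OHT DMSO. *Atf4* (127 and 137 against 88.8 and 107) and *Xbp1* (76.3 and 79.0 against 47.6 and 53.4) carried much of these last sums. The median log2 fold change of that list was 0.20, with 4 genes called higher and 2 lower.

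In the organoids that received ethanol, none of the 10 genes passed the test with Nec-1, which does not show that they were equal. The comparison of EtOH Nec-1 with EtOH DMSO, which asks what the inhibitor does without 4-OHT, shares the EtOH DMSO libraries with the one above. By limma 0 of the 10 genes were called higher and 0 lower, where 0.173% of the 12702 genes were called higher and 0.0472% lower (22 and 6 genes), and at an unadjusted p under 0.05 the count was also 0 of the 10, against 1689 of all genes. The limma adjusted p of the 10 genes ran from 0.449 to 0.988, and their median log2 fold change was -0.019, with -0.094 over all genes. *Hsp90b1*, *Xbp1*, *Sdf2l1* and *Calr* had values between -0.021 and -0.0056, with signs that turned with centring. The widest difference was that of *Hspa5*, -0.52 with a 95% interval from -1.22 to 0.19, which follows from its low value of 57.0 FPKM in the first EtOH Nec-1 library. *Pdia4*, at 36.7 and 36.5 FPKM, lay below both EtOH DMSO libraries (39.9 and 41.0), and its log2 fold change was -0.14 with an interval from -0.31 to 0.034. *Dnajb9*, at 11.7 and 11.5 FPKM, lay above both (10.6 and 10.5; 0.13, interval from -0.067 to 0.32). None of the 8 pathway lists had a gene that passed the test (0 in each), but 1 gene of the PERK branch list did with some of the other settings. This was *Slc7a11*, named after its value was seen, at 2.69 and 3.20 FPKM with EtOH DMSO and 6.88 in both libraries with EtOH Nec-1. Its log2 fold change was 1.00 (limma adjusted p = 0.0600, and 0.0313 to 0.441 over the alternatives). It passed with centring (limma adjusted p = 0.0313), with upper quartile scaling (0.0372), without either 4-OHT DMSO library (0.0463 and 0.0459) and with only the 4 libraries of the comparison (0.0489). The secretory marker sums of 13047 and 12940 FPKM lay above those of EtOH DMSO (12427 and 11315), with 0 markers called in each of the Paneth, goblet and enteroendocrine lists. Those of enterocytes were lower, at 1352 and 1339 FPKM against 1664 and 1617 with EtOH DMSO. Of the 12 tested enterocyte markers, 1 was called lower. Stem cell sums were 68.9 and 66.6 FPKM against 89.8 and 91.6, with 0 of 9 markers called.

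The library labelled 4-OHT Nec-1 has no replicate and was set beside each 4-OHT DMSO library without a test. Of the 10 genes 7 lay below both 4-OHT DMSO libraries, as did 50.6% of the 12036 genes that averaged 1 FPKM or more over the 3 libraries. Only *Xbp1* lay above both, as did 24.5% of those genes, by 0.16 and 0.0015 on the log2 scale, which sets it level with the second 4-OHT DMSO library. *Dnajb9* and *Atf6* lay between. *Sdf2l1* had the largest differences from the 2 libraries, -0.79 and -0.70, and *Calr* lay at -0.42 and -0.47, *Hsp90b1* at -0.30 and -0.35 and *Pdia4* at -0.24 and -0.25. For these 4 genes the 4-OHT Nec-1 library was farther from either 4-OHT DMSO library than those were from each other. *Hspa5* differed by -0.13 and -0.64, and *Ern1* and *Ern2* by -0.021 to -0.21, which is within or close to the gap between the 4-OHT DMSO libraries. The median of the 10 genes was -0.18, and that of all genes -0.089. Scaling changed the count: with centring 5 lay below both and 3 above, where 32.6% and 41.3% of all genes did. *Hspa5*, *Hsp90b1*, *Sdf2l1*, *Pdia4* and *Calr* stayed below under both scalings, and *Ern1* and *Ern2* came to lie between. The Paneth cell markers also lay lower in this library, with 12 of 12 below both 4-OHT DMSO libraries and a sum of 17848 FPKM against 24485 and 24207. Of the goblet markers 7 of 11 lay below both and 1 above both (sums 2919 against 3331 and 3889), with a median of -0.27. Of the 13 enteroendocrine markers 4 lay below both and 3 above both (sums 954 against 1020 and 1185), with a median of -0.076 beside -0.089 for all genes. The part of these cells in the levels of the chaperones was not tested.

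**Figure D5:**
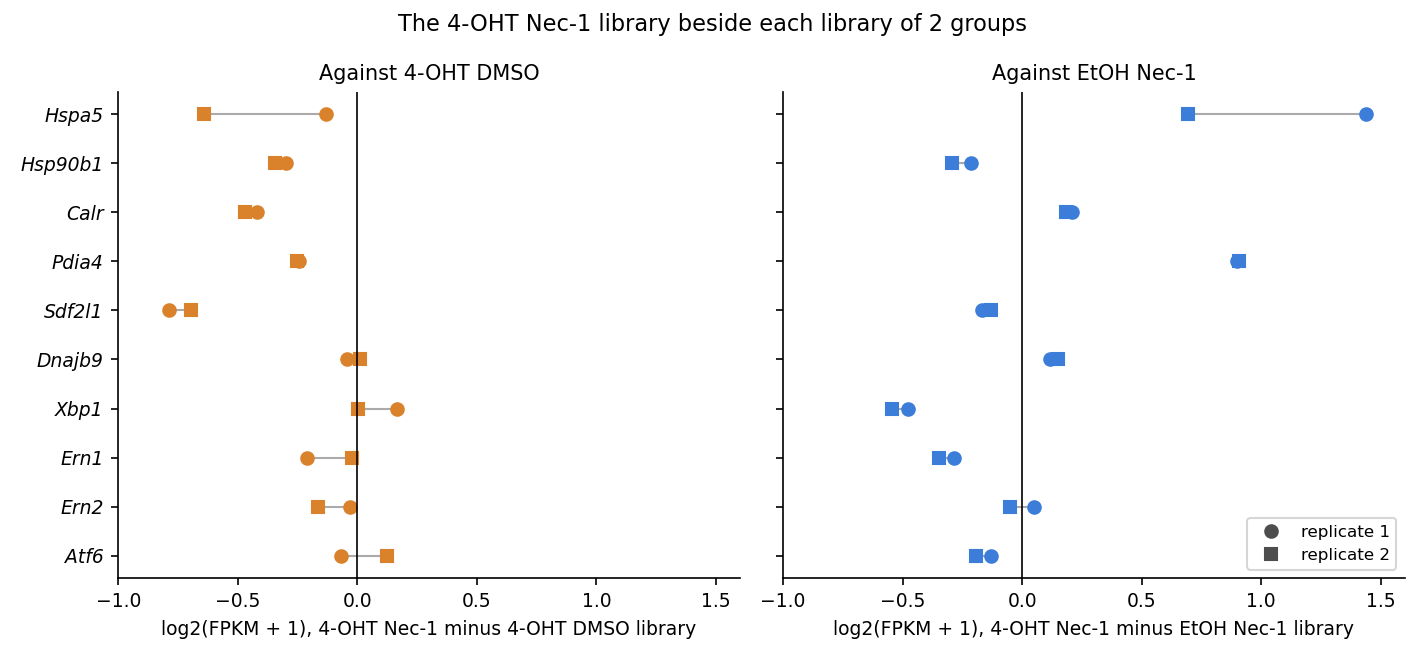
Differences in log2(FPKM + 1) (horizontal axis) of the 10 genes between the 4-OHT Nec-1 library and each 4-OHT DMSO library (left) or each EtOH Nec-1 library (right). Each point is 1 difference and the lines join the 2 differences of a gene; *Sdf2l1* lies at -0.79 and -0.70 on the left, and *Pdia4* at 0.90 and 0.91 on the right.

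The same library was set beside the EtOH Nec-1 libraries, a comparison that shares no library with that of the DMSO groups and in which both sides received Nec-1. Here 4 of the 10 genes lay above both EtOH Nec-1 libraries, as did 49.9% of 11746 genes, and 5 lay below both, as did 38.8%. Above were *Hspa5* (by 1.44 and 0.69), *Pdia4* (by 0.90 and 0.91), *Calr* (by 0.21 and 0.18) and *Dnajb9* (by 0.12 and 0.15). *Xbp1* (-0.48 and -0.54), *Ern1* (-0.29 and -0.35), *Hsp90b1* (-0.21 and -0.30), *Atf6* (-0.13 and -0.19) and *Sdf2l1* (-0.17 and -0.13) lay below. *Pdia4* at 69.3 FPKM and *Xbp1* at 53.5 were thus still on their 4-OHT side in the library labelled 4-OHT Nec-1, whereas *Sdf2l1* at 14.2 lay under every EtOH library and *Calr* at 181 between the EtOH and the 4-OHT DMSO levels. With centring *Dnajb9* lay between and *Ern2* below, which left 3 above and 6 below, where 38.4% and 50.3% of all genes were.

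The difference of the Nec-1 effects in organoids labelled EtOH and 4-OHT was estimated for each gene with the interaction term of the limma fit, in which the single 4-OHT Nec-1 library is taken to vary like the others. None of the 10 genes passed (0, limma adjusted p from 0.217 to 0.977), where 0.0551% of all genes did (7 genes). At an unadjusted p under 0.05 the count was 2 of the 10, against 1059 of all genes. These were *Sdf2l1* and *Calr*, with differences of -0.73 and -0.44 between the Nec-1 effects on the log2 scale. The spread of the 4-OHT Nec-1 group was not measured, so these values are a description and no difference of effects is drawn from them.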

How the data were processed

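RNA was sequenced from 7 organoid libraries, and the authors deposited FPKM per Ensembl mouse gene. The submitters' processing notes name HISAT2 2.1.0, StringTie 1.3.3b and mm10; the annotation is not given in the sources used here. Columns without a sample numbered 0, and 2 columns repeated values of other tables. Of the study's samples, 2 of CUT&Tag were not analysed here. Of 54838 identifiers, 54723 matched a symbol. Libraries were grouped by their labels.

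The 12702 genes that reached 1 FPKM in 2 or more libraries were fitted with limma 3.58.1 in R 4.3.3 on log2(FPKM + 1), with a mean-variance trend and 1 mean per group over the 7 libraries, leaving 3 residual degrees of freedom, and called where the p-value after Benjamini-Hochberg adjustment was under 0.05. The single 4-OHT Nec-1 library was set beside each library of another group, and a gene was counted when it lay below both or above both. The lists were 8 of the pathway (sensors and transcription factors, ER lumen chaperones, oxidoreductases, calnexin cycle, degradation, translocation, PERK branch, other chaperones) and 10 of cell type markers (Paneth, goblet, enteroendocrine, tuft, secretory fate, enterocyte, stem, plasma and immune, fibroblast and endothelial, epithelial). Members and lists were chosen with earlier results of these data known.

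Named were the 10 genes, *Mettl3*, in each pathway list up to 3 largest rises and 2 largest falls that passed the test with libraries that did not overlap, the most abundant gene of each cell type list, some defining markers, and the 5 genes most like *Hspa5* and *Ern2*. Genes outside this rule are marked as named after their values were seen, as are complete sets of small counts. Promoters came from RefSeq (GRCm38.p6). Python 3.11.15, numpy 2.4.6, pandas 2.3.3 and matplotlib 3.10.9 were used.

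From the spacing of low FPKM, the libraries had 0.85 to 1.03 times the depth of the first EtOH DMSO library. FPKM keep no fragment counts, so no counting error could be given. As alternatives, the fit was run without the trend, after scaling libraries by median or upper quartile, without the filter or with 1 FPKM asked of every library, with pseudocounts of 0.1 and 0.25, on the 4 compared libraries alone, with replicate number as a block, and leaving out each library in turn. For the 4-OHT Nec-1 library, a limma contrast with the pooled spread was also run.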

Additional observations from a re-analysis of the deposited data

How the results depend on the processing

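Between 4-OHT DMSO and EtOH DMSO, the log2 fold changes of the 10 genes kept direction and side of the threshold in 136 of 160 alternatives, lost their call in 17 (all *Hspa5* or *Dnajb9*), gained one in 4 (*Ern1*, *Atf6*) and turned sign in 3. The signs that turned were those of *Hsp90b1* (-0.096 with centring, -0.10 with upper quartile scaling) and *Ern2* (-0.018 to 0.47 with 1 library left out). The count of these genes called higher went from 5 to 3 with centring and to 3 with upper quartile scaling (3 to 5 with 1 library left out), and of those called lower from 1 to 3 and 2 (1 to 2). Over all genes, 2120 lower calls became 3187 with centring. Of the counts of the pathway lists, 200 of 256 stayed within 1.5 times their value and 56 did not. Of the 37 other pathway genes named by rule, 24 were called under every alternative in which they were tested (*Hspa1a* in 15 of 16) and 13 were not, and of the 8 called pathway genes named after their values were seen, 0 were.

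For EtOH Nec-1 against EtOH DMSO, 0 of the 10 genes were called by limma in any alternative, and 142 of 160 log2 fold changes kept their sign. With centring and with upper quartile scaling, those that turned were *Hsp90b1* (0.093 and 0.10), *Xbp1* (0.078 and 0.086), *Sdf2l1* (0.082 and 0.085) and *Calr* (0.091 and 0.099), and with centring *Atf6* (0.0063). With 1 library left out, signs also turned within the ranges of *Hsp90b1* (-0.056 to 0.045), *Xbp1* (-0.054 to 0.012), *Ern1* (-0.34 to 0.026), *Ern2* (-0.11 to 0.38), *Sdf2l1* (-0.088 to 0.054) and *Calr* (-0.021 to 0.0054). Over all genes, the 22 higher calls became 37 with upper quartile scaling, 6 with no filter and 59 with only the 4 libraries (5 to 57 with 1 library left out), and the 6 lower calls became 2 with no filter and 20 with the 4 libraries (2 to 18).

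A limma contrast with the pooled spread assumes, and does not measure, the spread of the single 4-OHT Nec-1 library, so its calls are not given. In that library, the number of the 10 genes above both 4-OHT DMSO libraries went from 1 to 3 with centring. It was also 3 with upper quartile scaling (1 to 3 with 1 library left out). Over all genes the share above both went from 24.5% to 41.3% with centring and to 40.7% with upper quartile scaling. The cause of these changes was not tested.

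With the replicate number as a block, 4 of the 10 genes were called higher (without *Dnajb9*, limma adjusted p = 0.0661) and 1 lower between the DMSO groups, over all genes 2788 and 1909, and with Nec-1 in EtOH organoids 15 and 4. Deviations of same-numbered libraries correlated across genes with r of -0.040, 0.0060 and -0.012; in groups of 2, a number does not establish pairing. The p-values rest on 2 libraries a group, and FPKM give no counting error, so small differences of low genes such as *Ern2* could not be resolved.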
